A study of Mus musculus with 6 samples.

Results

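Respiratory complex I is the NADH:ubiquinone oxidoreductase of the inner mitochondrial membrane, and the genes described here are its nuclear genes in mouse kidney. They were taken by name, as the protein-coding genes whose symbol starts with Ndufa, Ndufb, Ndufc, Ndufs or Ndufv, which gave 46 of the 21995 protein-coding genes among the 54532 genes measured. Of these, 36 encode subunits, 8 with symbols starting Ndufaf encode assembly factors, and *Ndufa4* and *Ndufa4l2* were kept apart because *Ndufa4*, first described in complex I, is now regarded as a subunit of complex IV. All 46 passed the filter on low counts. Whole kidneys were compared between KsprtTA mice (Control), which lack the TRE-Adiponectin transgene, and KsprtTA/TRE-Adiponectin mice (KSPAPN), in which doxycycline switches on adiponectin in kidney tubular epithelium. Both groups, males on the C57BL/6 background, received doxycycline at 600 mg/kg in chow for 4 days, and no source used here states their age. The sample labels call the Control genotype WT. Each group had 3 RNA-seq libraries and each library was a pool of 3 mice, so that the p-values measure the spread between pools.

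Between 17183358 and 20871173 reads were counted on genes per library. *Adipoq*, the gene that was switched on, had 0 to 2 reads in the Control libraries and 17483 to 26811 in the KSPAPN libraries. The labelled tissue was kidney, while the text on RNA extraction spoke of liver. Levels are given as FPKM, fragments scaled by gene length and library size. Kidney markers were high in every library. Of 8 hepatocyte markers *Alb* averaged 2.05 FPKM in Control and 3.04 in KSPAPN, *Cyp7a1* was listed at 0 in Control, and the summed level, 79.2 to 161 and 53.1 to 82.0 FPKM, was mostly *Ttr* (114 and 50.7 FPKM), which was called lower (log2 difference -1.17 ± 0.25, edgeR adjusted p = 0.0388).

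Complex I takes electrons from NADH, passes them along a flavin and a chain of iron-sulfur clusters to ubiquinone, and pumps protons across the inner membrane. Its matrix arm holds the N module, where NADH is oxidized, and the Q module, where ubiquinone is reduced, and its membrane arm has a proximal and a distal part that carry the proton pumps. Core subunits do the electron transfer and pumping, accessory subunits surround them, and assembly factors help to build the enzyme without staying in it. The membrane core subunits are encoded by mitochondrial DNA and all others in the nucleus, and kidney tubules, which reabsorb solutes at high energy cost, are rich in this enzyme.

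Most nuclear subunit genes had lower values in KSPAPN kidneys, by a modest amount. The 36 subunit genes together held 0.507 ± 0.017% of the counted reads in Control and 0.427 ± 0.025% in KSPAPN (SD, n = 3 libraries). Their summed FPKM was 3472, 3379 and 3258 in the Control libraries and 2741, 2656 and 2592 in the KSPAPN libraries. Every KSPAPN library was below every Control library in this sum. Log2 fold changes were below 0 for 34 of the 36 genes, and for 48.1% of all 16017 genes tested. The median log2 fold change was -0.31 over the subunit genes and 0.012 over all genes tested. In edgeR's quasi-likelihood test, 25 subunit genes were lower at an unadjusted p under 0.05, against 11.2% of all genes tested, and none was higher. After Benjamini-Hochberg adjustment over all genes tested, 8 of the 36 were lower at an adjusted p under 0.05, against 2.25% of all genes tested. The KSPAPN libraries lay below all Control libraries, in normalized counts, for 27 of the 36 subunit genes and for 13.1% of all genes tested. Among them *Ndufs1* overlapped when measured in FPKM. DESeq2 called 17 of the 36 lower, against 4.65% of all genes.

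**Figure D1:**
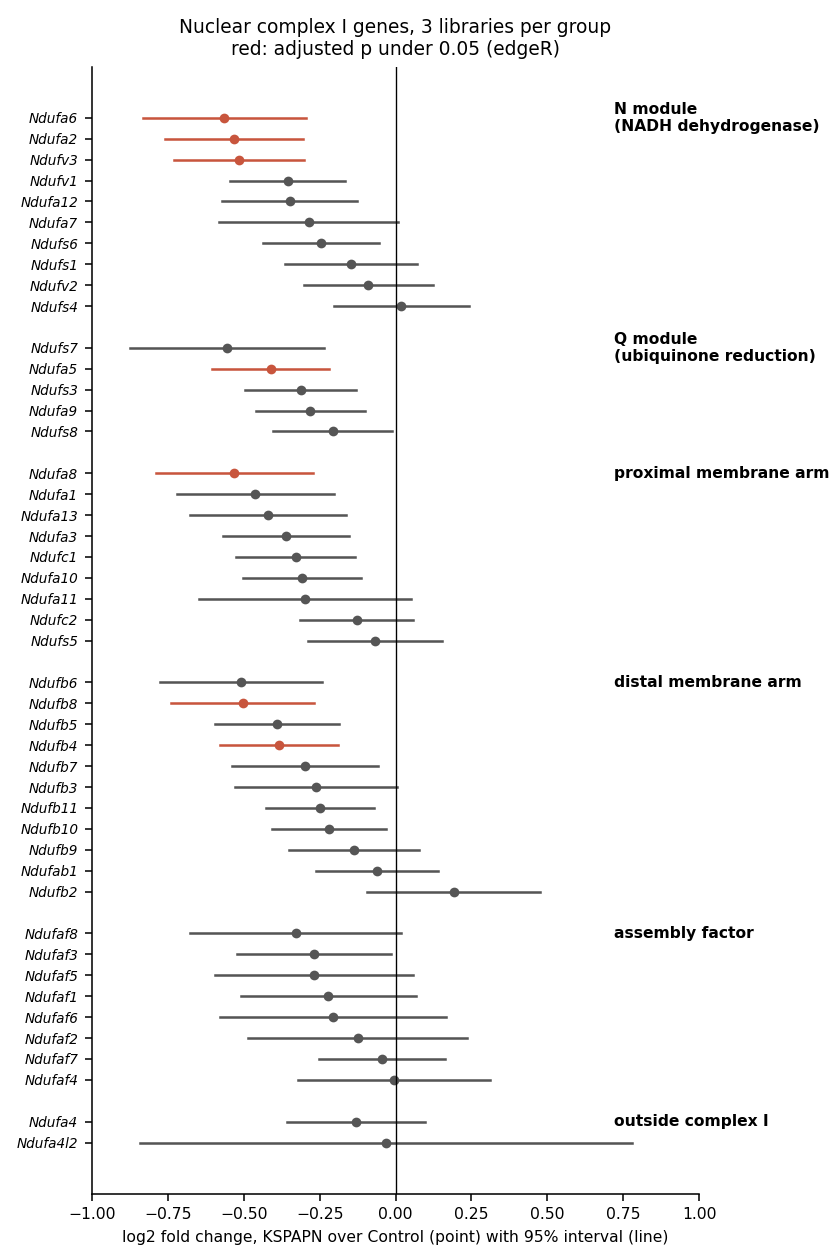
Log2 fold change of KSPAPN over Control (horizontal axis) for 45 of the 46 nuclear complex I genes, grouped by the part of the enzyme they belong to, with points for the fitted value, lines for the 95% confidence interval and red for an adjusted p under 0.05. The values of 43 genes lie below 0, *Ndufs4* and *Ndufb2* lie above it, and the 7 red genes are all subunits.

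The number of called genes rested on single libraries. It was 0 without Control replicate 1, Control replicate 2, KSPAPN replicate 2 or KSPAPN replicate 3, where 0.206%, 0.7%, 1.47% and 0.366% of all genes tested were called lower. It was 1 without Control replicate 3 and 14 without KSPAPN replicate 1, against 1.64% and 3.47% of all genes. The median over the subunit genes moved less, between -0.29 and -0.34 in these 6 fits. In each, 21 to 25 of the 36 subunit genes were lower at an unadjusted p under 0.05. Over all genes, 1310 to 2003 of the 16408 to 16575 tested were. Correction of each library for its trend against transcript GC content and length left 2 genes lower at an adjusted p under 0.05, *Ndufv3* and *Ndufb5*, against 1.85% of all genes, and a median of -0.16. In that fit 29 of the 36 had a fold change below 0, against 6821 of all 16017 genes tested.

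Proximal tubule markers had mostly lower values in KSPAPN as well. Their summed FPKM was 4844 to 5586 in Control and 4041 to 4475 in KSPAPN, and 13 of 15 had lower values, 4 of them at an adjusted p under 0.05 (edgeR): *Slc7a13*, *Miox*, *Slc22a6* and *Ggt1*. Of the 15, 0 were called without Control replicate 1, Control replicate 2 or KSPAPN replicate 3, and 2 without Control replicate 3 or KSPAPN replicate 2. Without KSPAPN replicate 1 there were 3, and after the correction for GC content and length 2. Of all genes tested, 2.25% were called lower in the fit as reported. In these other fits the share was 0.206%, 0.7%, 0.366%, 1.64%, 1.47%, 3.47% and 1.85%, in the same order. The summed FPKM of medulla and distal nephron markers was 1385 to 1581 in Control and 1338 to 1874 in KSPAPN. Lower values were found for 5 of the 11 and higher values for 6. At an unadjusted p under 0.05, 3 were lower and 1 was higher. Called higher was 1, *Slc12a1*, the transporter of the thick ascending limb (log2 difference 0.52 ± 0.11, edgeR adjusted p = 0.0437), against 0.393% of all genes tested. After the correction for GC content and length 0 of the 11 were called higher, against 0.593% of all genes. This count was 1 without KSPAPN replicate 1 (0.986% of all genes) and 0 without any other single library (0.0303% to 0.236%). All 6 podocyte markers had higher values, 1 of them at an unadjusted p under 0.05, and none passed the adjusted threshold. The summed FPKM was 42.3 to 63.9 and 58.5 to 80.3 for these, for the 7 endothelial markers 37.5 to 48.1 and 37.4 to 48.1, for the 8 immune markers 134 to 152 and 120.5 to 173, and for the 6 pericyte and smooth muscle markers 60.9 to 97.7 and 81.2 to 98.9. The 8 adipocyte markers summed to 9.25 to 12.8 and 10.5 to 11.4. The part of cell type proportions in the complex I values was not tested. In whole kidney, fewer cells of a type and less RNA per cell cannot be told apart.

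The promoters of these genes are shown because most members had lower values together and because factors of mitochondrial gene control are known to bind near the start of such genes. Windows of 300 bases, from 250 before to 50 after the annotated start, were at hand for 40 of the 46 members (RefSeq, GRCm38.p6). The NRF-1 letters CGCANGCGC, read on both strands, were found in 11 of the 40 windows (27.5%) and in 7.12% of the windows of 27025 genes. These letters were relaxed by 1 base after a first look at the windows, so their counts are descriptions and not a test. The 27025 genes include genes that were not tested for expression here. CCGGAAG, the core bound by GABPA (NRF-2), was in 6 of 40 and in 9.93% of all genes, and AAGATGGCG, bound by YY1, was in 6 of 40 and in 1.64%. CAAGGTCA, bound by estrogen-related receptors, was in 1 of 40 and in 1.76%. The NRF-1 letters stood in 4 of the 6 windows of genes past the threshold (*Ndufa5*, *Ndufa6*, *Ndufa8*, *Ndufb4*) and in 7 of the 34 windows of other members. The stretches below lie before the start and outside all annotated exons, run 5′ to 3′ on the strand of the gene, and carry matches in capitals. The first 3 belong to genes that were called lower, *Ndufb2* had the highest fold change of the subunit genes, and *Ndufs5* and *Ndufaf4*, with fold changes near 0, are shown because they hold the NRF-1 letters.
Ndufb4: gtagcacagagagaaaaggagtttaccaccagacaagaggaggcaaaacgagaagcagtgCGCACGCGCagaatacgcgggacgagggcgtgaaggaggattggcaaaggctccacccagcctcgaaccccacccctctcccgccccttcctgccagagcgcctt
Ndufb8: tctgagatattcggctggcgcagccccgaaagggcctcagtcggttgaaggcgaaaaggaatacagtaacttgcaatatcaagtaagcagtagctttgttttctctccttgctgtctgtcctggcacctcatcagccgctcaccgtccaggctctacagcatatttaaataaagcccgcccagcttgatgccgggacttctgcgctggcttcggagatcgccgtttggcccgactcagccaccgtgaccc
Ndufa6: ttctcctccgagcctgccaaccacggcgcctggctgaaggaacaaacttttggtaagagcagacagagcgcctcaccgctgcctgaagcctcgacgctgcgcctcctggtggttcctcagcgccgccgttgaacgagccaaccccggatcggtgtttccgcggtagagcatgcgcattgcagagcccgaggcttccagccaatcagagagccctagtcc
Ndufb2: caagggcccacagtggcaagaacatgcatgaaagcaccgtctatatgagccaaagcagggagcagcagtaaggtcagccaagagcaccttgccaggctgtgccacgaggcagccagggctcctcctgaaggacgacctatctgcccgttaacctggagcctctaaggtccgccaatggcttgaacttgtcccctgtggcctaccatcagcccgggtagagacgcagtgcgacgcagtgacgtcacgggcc
Ndufs5: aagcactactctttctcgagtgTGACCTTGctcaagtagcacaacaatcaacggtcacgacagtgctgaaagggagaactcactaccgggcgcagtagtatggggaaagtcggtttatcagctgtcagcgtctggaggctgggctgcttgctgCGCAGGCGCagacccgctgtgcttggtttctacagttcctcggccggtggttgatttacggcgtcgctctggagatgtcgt
Ndufaf4: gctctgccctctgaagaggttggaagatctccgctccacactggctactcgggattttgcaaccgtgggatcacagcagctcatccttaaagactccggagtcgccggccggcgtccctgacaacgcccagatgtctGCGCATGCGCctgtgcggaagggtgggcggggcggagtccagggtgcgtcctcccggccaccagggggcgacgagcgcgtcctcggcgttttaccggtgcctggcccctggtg
The stretch of *Ndufb4* is chr16:37654454-37654618 on the minus strand, with the NRF-1 letters 190 bases before the start. That of *Ndufb8* is chr19:44555443-44555692 on the minus strand, that of *Ndufa6* chr15:82354323-82354541 on the minus strand and that of *Ndufb2* chr6:39592315-39592564 on the plus strand, none of them with a match to the 4 motifs. The *Ndufs5* stretch, chr4:123718203-123718436 on the minus strand, holds the NRF-1 letters 97 bases and the estrogen-related receptor letters 228 bases before the start. The *Ndufaf4* stretch, chr4:24897833-24898082 on the plus strand, holds the NRF-1 letters at 113 and again, overlapping on the other strand, at 112 bases before the start. In *Ndufa6* the NRF-1 letters begin at base 24 after the start, outside the stretch shown. The letters thus stood near the start of genes that were called lower and of genes whose values hardly differed.

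In the N module, which binds NADH and its flavin, 9 of 10 subunit genes had lower values, 3 of them past the adjusted threshold, and the median log2 fold change was -0.32. Over all genes tested, 48.1% had lower values and 2.25% were called lower. *Ndufa6* (chromosome 15, 82350140 to 82354322, GRCm38), an accessory subunit of the LYR family that binds mitochondrial acyl carrier protein, had 98.2, 79.5 and 79.6 FPKM in the Control libraries and 65.7, 53.98 and 53.4 FPKM in the KSPAPN libraries. Every KSPAPN library was below every Control library, and Control replicate 1 was the highest of all. The log2 difference was -0.56 ± 0.12 (SE), that is 32.4% lower, with an adjusted p of 0.0403 in edgeR, and of all subunit genes this was the lowest fold change. *Ndufa2*, an accessory subunit with a thioredoxin-like fold and the highest mean level of the 36 subunit genes (182 FPKM), had 231, 208 and 206 FPKM in the Control libraries and 165, 141 and 138 FPKM in the KSPAPN libraries. Its groups did not overlap, and the log2 difference was -0.53 ± 0.10, or 30.9% lower (edgeR adjusted p = 0.0267). About 11.5% of its exonic bases lie opposite *Tmco6*, which had 154 to 215 reads. *Ndufv3* (chromosome 17, 31520115 to 31531331), a small accessory subunit of the flavoprotein part, had 59.1, 51.7 and 47.6 FPKM in the Control libraries and 37.1, 36.8 and 36.4 FPKM in the KSPAPN libraries. The KSPAPN libraries lay within 1 FPKM of each other and below all Control libraries, and the log2 difference was -0.52 ± 0.10, or 30.1% lower (edgeR adjusted p = 0.0255). It was the gene called most often, in 9 of the 16 alternative fits.

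The core subunits of the N module differed less than its called genes. *Ndufv1*, which carries the flavin and oxidizes NADH, had 135, 136 and 126 FPKM in the Control libraries and 97.7, 105 and 106 FPKM in the KSPAPN libraries, without overlap. The log2 difference was -0.36 ± 0.086 with an edgeR adjusted p of 0.0592, past an unadjusted p of 0.05 (0.00185) but not past the adjusted one. *Ndufs1*, the large subunit that holds several iron-sulfur clusters, had 30.1, 32.9 and 29.9 FPKM in the Control libraries and 24.6, 30.03 and 29.1 FPKM in the KSPAPN libraries. KSPAPN replicate 2 lay above the lowest Control library, and the log2 difference was -0.15, with a 95% interval of -0.36 to 0.071 (edgeR adjusted p = 0.462). *Ndufv2*, an iron-sulfur partner of *Ndufv1*, had 86.2, 91.1 and 85.04 FPKM in the Control libraries and 74.2, 91.8 and 79.8 FPKM in the KSPAPN libraries. KSPAPN replicate 2 was the highest of the 6, and the log2 difference was -0.089 with an interval of -0.30 to 0.12 (edgeR adjusted p = 0.666). *Ndufs4*, an accessory subunit whose loss causes a Leigh-like disease in mice, had 31.1, 36.3 and 33.9 FPKM in the Control libraries and 30.2, 35.8 and 36.4 FPKM in the KSPAPN libraries. The groups overlapped and the log2 difference was 0.019, with an interval of -0.20 to 0.24 (edgeR adjusted p = 0.941). The remaining N module genes, *Ndufa7*, *Ndufa12* and *Ndufs6*, had log2 differences between -0.35 and -0.25, none past an adjusted p of 0.05.

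In the Q module, where electrons reach ubiquinone, the median log2 fold change of the subunit genes was -0.36. *Ndufa5* (chromosome 6, 24518666 to 24528013), an accessory subunit of the matrix arm, had 90.04, 91.7 and 96.3 FPKM in the Control libraries and 65.7, 75.1 and 67.5 FPKM in the KSPAPN libraries. The groups did not overlap, and the log2 difference was -0.41 ± 0.087, or 24.8% lower (edgeR adjusted p = 0.0388). *Ndufs7*, which holds the last iron-sulfur cluster before ubiquinone, had 91.9, 72.6 and 83.2 FPKM in the Control libraries and 67.1, 55.00 and 45.6 FPKM in the KSPAPN libraries. The log2 difference, -0.55 ± 0.14, was the second lowest of the subunit genes, but the libraries within each group were spread widely and the edgeR adjusted p was 0.0751. It was 31.9% lower by the fit.

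Further subunit genes of the Q module had smaller differences. *Ndufs3*, a core subunit without a cluster, had 77.6, 71.5 and 71.2 FPKM in the Control libraries and 58.5, 58.4 and 59.7 FPKM in the KSPAPN libraries. Its groups did not overlap, and the log2 difference was -0.31 ± 0.083 (edgeR adjusted p = 0.0796). About 19.9% of its longest transcript is matched, in stretches of 100 bases, by the pseudogene *Gm12251*, which had at most 7 reads in a library. *Ndufs8*, an iron-sulfur subunit, had 156, 145 and 156 FPKM in the Control libraries and 137, 135 and 123 FPKM in the KSPAPN libraries. Its groups did not overlap either, but the log2 difference of -0.21 ± 0.088 had an edgeR adjusted p of 0.243, and it was 0.00055 after the correction for GC content and length. *Ndufa9*, an accessory subunit related to short-chain dehydrogenases, had a log2 difference of -0.28 ± 0.081 (edgeR adjusted p = 0.0983).

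In the membrane arm, the 9 nuclear genes of the proximal part all had lower values, with a median log2 fold change of -0.33. *Ndufa8* (chromosome 2, 36036326 to 36049406), an accessory subunit on the intermembrane space side, had 171, 148 and 147 FPKM in the Control libraries and 124, 98.9 and 98.02 FPKM in the KSPAPN libraries. Every KSPAPN library was below every Control library, and the log2 difference was -0.53 ± 0.12, or 30.8% lower (edgeR adjusted p = 0.0434). It was the called gene of this part. *Ndufa1*, *Ndufa13*, *Ndufa3*, *Ndufc1* and *Ndufa10* had log2 differences between -0.46 and -0.31 and passed an unadjusted p of 0.05. *Ndufa11*, *Ndufc2* and *Ndufs5* did not, with values of -0.30, -0.13 and -0.067. About 30.0% of the exonic bases of *Ndufa13*, the subunit also known as GRIM-19, lie opposite *Tssk6*, which had 12 to 47 reads.

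Among the 11 genes of the distal part, 10 had lower values and the median log2 fold change was -0.26. *Ndufb8* (chromosome 19, 44548572 to 44555440), an accessory subunit whose protein is widely used as a readout of assembled complex I, had 64.03, 60.2 and 58.2 FPKM in the Control libraries and 47.7, 43.01 and 37.3 FPKM in the KSPAPN libraries. The groups did not overlap, and the log2 difference was -0.50 ± 0.11, or 29.5% lower (edgeR adjusted p = 0.0386). *Ndufb4* (chromosome 16, 37647170 to 37654453), another accessory subunit of this arm, had 42.98, 43.9 and 38.4 FPKM in the Control libraries and 31.3, 32.9 and 31.6 FPKM in the KSPAPN libraries. Its KSPAPN libraries were below all Control libraries, and the log2 difference was -0.38 ± 0.088, or 23.3% lower, with an edgeR adjusted p of 0.0496, the nearest to the threshold among the called genes. About 33.4% of its longest transcript is matched by the pseudogene *Ndufb4c*, which had at most 6 reads in a library. Just outside the threshold, *Ndufb6* and *Ndufb5* had log2 differences of -0.51 ± 0.12 and -0.39 ± 0.092, each with an edgeR adjusted p of 0.0546. About 39% of the exonic bases of *Ndufb6* lie opposite *Smim27*, which had 11 to 48 reads. For *Ndufb5* about 12.3% lie opposite *Mrpl47*, which had 257 to 355 reads. Values for *Ndufb3*, *Ndufb7*, *Ndufb9*, *Ndufb10* and *Ndufb11* lay between -0.30 and -0.14, 3 of them past an unadjusted p of 0.05. The shares over all genes tested were 48.1% with lower values, 11.2% lower at an unadjusted p under 0.05 and 2.25% called lower.

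*Ndufb2*, an accessory subunit of the distal arm, went against the other genes. It had 2.34, 2.66 and 2.56 FPKM in the Control libraries and 2.95, 2.85 and 2.80 FPKM in the KSPAPN libraries, so that the KSPAPN libraries all lay above the highest Control library. The log2 difference was 0.19, with an interval of -0.094 to 0.48, and did not pass the test (edgeR adjusted p = 0.462). Its mean level, 2.69 FPKM from 244 to 387 reads a library, was the lowest of the 36 subunit genes, and it shares exon sequence on the same strand with *Gm42420*, which had 0 reads in all 6 libraries. How reads in the shared part were assigned is not stated in any source used here, which leaves its level uncertain. *Ndufab1*, the mitochondrial acyl carrier protein that also serves lipoic acid synthesis, had 21.1, 24.4 and 22.5 FPKM in the Control libraries and 20.5, 22.9 and 21.5 FPKM in the KSPAPN libraries. Its groups overlapped and the log2 difference was -0.062, with an interval of -0.26 to 0.14 (edgeR adjusted p = 0.762).

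**Figure D2:**
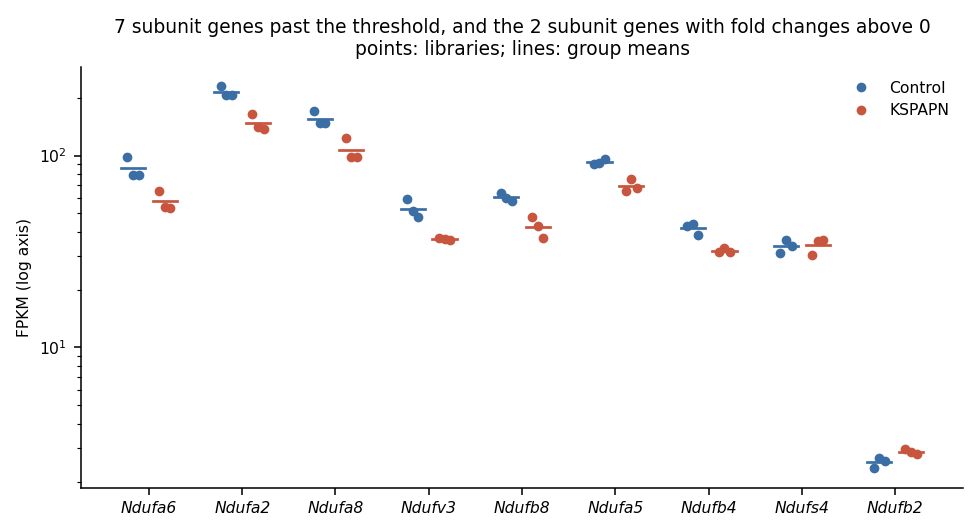
FPKM on a log axis in the 3 Control (blue) and 3 KSPAPN (red) libraries for 7 subunit genes past the threshold and for *Ndufs4* and *Ndufb2*, with points for libraries and lines for group means. The KSPAPN points lie below the Control points in the 7 genes, overlap them in *Ndufs4* and lie above them in *Ndufb2*.

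The assembly factors had lower values too, but none passed the adjusted test. All 8 log2 fold changes were below 0, against 48.1% of all genes tested, with a median of -0.21. In edgeR *Ndufaf3*, 1 of the 8, had an unadjusted p under 0.05, against 11.2% of all genes tested that were lower at it. The adjusted threshold was passed by 0, and DESeq2 called 0. After the correction for GC content and length the median of the 8 was -0.093, and all 8 stayed below 0. Their summed FPKM was 116, 122 and 111 in the Control libraries and 97.2, 101 and 104 in the KSPAPN libraries, without overlap. Their mean FPKM over the 6 libraries ranged from 5.37 for *Ndufaf2* to 27.3 for *Ndufaf8*, against 2.69 to 182 for the subunit genes.

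*Ndufaf3* and *Ndufaf4* act together in building the Q module. *Ndufaf3* had 14.03, 14.04 and 13.3 FPKM in the Control libraries and 12.2, 11.4 and 10.6 FPKM in the KSPAPN libraries, without overlap, and a log2 difference of -0.27 ± 0.11 (edgeR adjusted p = 0.242). *Ndufaf4* had 12.3, 14.7 and 13.6 FPKM in the Control libraries and 10.3, 15.6 and 14.5 FPKM in the KSPAPN libraries. The groups overlapped, with KSPAPN replicate 2 the highest and KSPAPN replicate 1 the lowest of all, and the log2 difference was -0.0057 (-0.32 to 0.31). *Ndufaf5*, which modifies an arginine of the *Ndufs7* protein, had 6.88, 7.61 and 7.70 FPKM in the Control libraries and 6.50, 5.41 and 6.39 FPKM in the KSPAPN libraries. *Ndufaf8*, which stabilizes the *Ndufaf5* protein, had 33.6, 31.5 and 26.2 FPKM in the Control libraries and 27.5, 19.5 and 25.2 FPKM in the KSPAPN libraries. The groups were apart for *Ndufaf5* and overlapped for *Ndufaf8*, with log2 differences of -0.27 ± 0.15 and -0.33 ± 0.16 (edgeR adjusted p = 0.362 and 0.293). *Ndufaf7*, a methyltransferase, had 10.04, 9.63 and 10.1 FPKM in the Control libraries and 9.56, 9.31 and 9.88 FPKM in the KSPAPN libraries, and a log2 difference of -0.045 (-0.25 to 0.16). *Ndufaf1*, part of the complex that assembles the membrane arm, had 19.4, 24.9 and 21.1 FPKM in the Control libraries and 16.4, 21.03 and 18.5 FPKM in the KSPAPN libraries. KSPAPN replicate 2 lay above the lowest Control library, and the log2 difference was -0.22 ± 0.13 (edgeR adjusted p = 0.392). *Ndufaf6*, an early factor of unsettled activity, had 14.9, 13.03 and 14.4 FPKM in the Control libraries and 9.18, 13.7 and 13.8 FPKM in the KSPAPN libraries. Its KSPAPN replicate 1 was far below the other 5 libraries, and the log2 difference was -0.21 ± 0.17 (edgeR adjusted p = 0.554). *Ndufaf2*, a late factor related to the subunit *Ndufa12*, had 4.96, 6.85 and 5.02 FPKM in the Control libraries and 5.67, 4.92 and 4.76 FPKM in the KSPAPN libraries. The groups overlapped, with a log2 difference of -0.13 ± 0.16. Its count is uncertain since 80.5% of its longest transcript is matched elsewhere. In addition, 65.7% of its exonic bases lie opposite *B230220B15Rik*, which had at most 4 reads.

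Both genes kept apart from complex I showed no difference beyond the spread. *Ndufa4*, of complex IV, had 283, 306 and 289 FPKM in the Control libraries and 231, 291 and 279 FPKM in the KSPAPN libraries. The groups overlapped, and the log2 difference was -0.13 with an interval of -0.36 to 0.10 (edgeR adjusted p = 0.543). *Ndufa4l2*, its relative that is known to be induced in hypoxia, was low, with 4.14, 1.95 and 5.25 FPKM in the Control libraries and 4.20, 2.35 and 4.45 FPKM in the KSPAPN libraries. At 37 to 107 reads a library the interval of its log2 difference was wide, -0.84 to 0.78 around -0.032.

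The mitochondrially encoded subunits showed no difference beyond the spread between libraries in the test as reported. The summed FPKM of the 7 mt-Nd genes was 29353, 43999 and 39144 in the Control libraries and 31829, 55405 and 48082 in the KSPAPN libraries. The groups overlapped, and the spread within a group was much wider than for the nuclear subunit genes, with Control replicate 1 and KSPAPN replicate 1 low in their groups. Log2 fold changes were above 0 for 6 of the 7 and the median was 0.22, running from 0.055 without KSPAPN replicate 2 to 0.43 without KSPAPN replicate 1. None was called in either direction in edgeR, at an adjusted or an unadjusted p under 0.05, and DESeq2 called 0. The largest absolute values were 0.43 ± 0.29 for *mt-Nd6*, -0.34 ± 0.41 for *mt-Nd3* and 0.28 ± 0.17 for *mt-Nd4*, with edgeR adjusted p-values of 0.463, 0.711 and 0.418. Without the filter on low counts 1 of the 7, *mt-Nd6*, was called higher in KSPAPN, at the same log2 difference of 0.43. Of all genes in that fit, 1.02% were called higher. At an unadjusted p under 0.05, 4 of the 7 were higher and 1 was lower there, against 1543 and 2292 of 29418 genes. Without KSPAPN replicate 1, 5 of the 7 were higher at an unadjusted p under 0.05, against 1574 of 16433 genes. None passed the adjusted threshold, against 0.986% of all genes that were called higher. Whether they differ from the nuclear subunit genes was not tested. Messengers of mitochondrial DNA were captured here with oligo(dT) beads, and the part of that step in their spread was not tested.

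Of 12 further complex I assembly factors, 11 had lower values and 1 was called, against 48.1% and 2.25% of all genes tested. The median was -0.18. Without single libraries the count of 1 became 0 (Control replicate 1, Control replicate 2, KSPAPN replicate 2, KSPAPN replicate 3) or stayed 1 (Control replicate 3, KSPAPN replicate 1). The share of all genes called lower was then 0.206%, 0.7%, 1.47%, 0.366%, 1.64% and 3.47%, in the same order. The called gene was *Acad9*, a partner of *Ndufaf1* and *Ecsit* in membrane arm assembly, which had 11.2, 10.6 and 9.21 FPKM in the Control libraries and 7.11, 7.41 and 7.63 FPKM in the KSPAPN libraries. The groups did not overlap, and the log2 difference was -0.48 ± 0.10 (edgeR adjusted p = 0.0304). *Dmac1* and *Ecsit* had values of -0.40 ± 0.11 and -0.38 ± 0.092 (edgeR adjusted p = 0.0968 and 0.0605). Of 13 genes tested for iron-sulfur cluster assembly, which supplies the cofactors of the core subunits, 12 had lower values. In edgeR 6 of them had an unadjusted p under 0.05 and 0 an adjusted p under it, against 11.2% and 2.25% of all genes tested. DESeq2 called 2 of the 13 lower, against 4.65% of all genes. *Iscu*, the scaffold, had a log2 difference of -0.44 ± 0.12 (edgeR adjusted p = 0.0869). Of 8 other enzymes that pass electrons to ubiquinone, 7 had lower values. In edgeR 4 of them had an unadjusted p under 0.05 and 0 an adjusted p under it, and DESeq2 called 2. The shares over all genes tested were again 11.2%, 2.25% and 4.65%. The lowest were *Prodh*, proline dehydrogenase, at -0.46 ± 0.12 and *Prodh2*, hydroxyproline dehydrogenase, at -0.45 ± 0.19 (edgeR adjusted p = 0.0840 and 0.248).

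The nuclear genes of the other respiratory complexes had lower values by a similar amount. Of 43 tested genes of complexes II to V, 41 had lower values. Of these, 29 passed an unadjusted and 4 an adjusted p of 0.05, against 11.2% and 2.25% of all genes tested. The median was -0.27 against -0.31 for the complex I subunit genes. The difference between these medians was not tested. The 4 called genes were *Uqcrc1* (-0.57 ± 0.094) and *Cyc1* (-0.48 ± 0.087) of complex III, *Sdhb* (-0.53 ± 0.084) of complex II and *Atp5g3* (-0.54 ± 0.10) of complex V, with edgeR adjusted p-values of 0.0163, 0.0222, 0.0138 and 0.0256. Without single libraries the count of 4 became 0 (Control replicate 1, KSPAPN replicate 3), 1 (Control replicate 2), 2 (Control replicate 3, KSPAPN replicate 2) or 11 (KSPAPN replicate 1). The share of all genes called lower was then 0.206%, 0.366%, 0.7%, 1.64%, 1.47% and 3.47%, in the same order. Over the whole list of 47 genes, those below the filter included, the summed FPKM was 9512, 9195 and 9145 in the Control libraries and 7524, 7400.3 and 7286 in the KSPAPN libraries. Every KSPAPN library was again below every Control library. Ribosomal protein genes had lower values as well, 69 of 77 tested for the mitochondrial ribosome and 74 of 81 for the cytosolic ribosome. The medians were -0.20 in both lists. Called were 3 of the 77 and 2 of the 81, against 2.25% of all genes tested. The called genes were *Mrpl12* (-0.55 ± 0.09), *Mrpl38* (-0.48 ± 0.10) and *Mrpl2* (-0.46 ± 0.10) of the mitochondrial and *Rpl30* (-0.44 ± 0.10) and *Rps18* (-0.44 ± 0.092) of the cytosolic ribosome, with edgeR adjusted p-values of 0.0150, 0.0379, 0.0378, 0.0445 and 0.0380. The lower values of the complex I genes were shared by these lists in the fit as reported, and no difference from them was tested. After the correction for GC content and length the median was -0.16 for complexes II to V, as for the complex I subunit genes. The single complexes II, III, IV and V had -0.20, -0.21, -0.064 and -0.15. The median was then -0.10 for the mitochondrial and -0.052 for the cytosolic ribosome, where 56 of 77 and 47 of 81 had lower values.

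**Figure D3:**
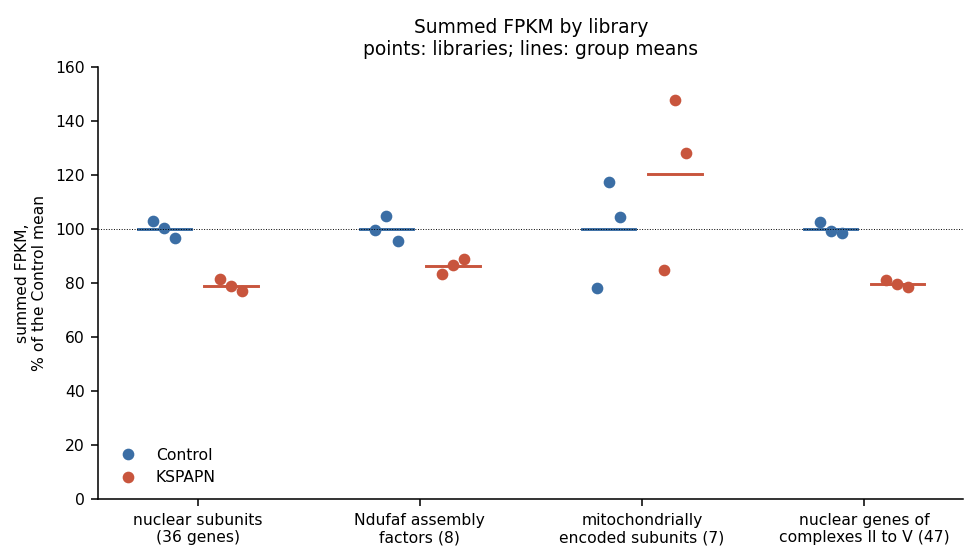
Summed FPKM of each library as a percentage of the Control mean (vertical axis) for 4 lists of genes, with points for libraries and lines for group means. Nuclear complex I subunit genes and the genes of complexes II to V are lower in all 3 KSPAPN libraries, and the mitochondrially encoded subunits overlap between the groups.

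Transcript base composition moved with the fold change. Over the 36 subunit genes, log2 fold change and the GC content of the longest transcript had a Pearson r of -0.48 and a Spearman rho of -0.38, and over 16004 genes the values were -0.20 and -0.29. These are correlations across genes, which share the same 6 libraries and are not independent replicates. The 18 subunit genes with GC content above the median of 51.4% had a median log2 fold change of -0.35 and the 18 below it -0.27, while all genes in the same GC ranges had medians of -0.071 and 0.049. Both genes with a fold change above 0 had low GC content, 43.7% for *Ndufb2* and 43.1% for *Ndufs4*. Of the other genes that differed little, *Ndufv2* had 41.96%, *Ndufab1* 45.3%, *Ndufs5* 48.97% and *Ndufb9* 55.4%. After removal of the trend against GC content and length, the medians of the 18 genes above and the 18 below were -0.17 and -0.14. *Ndufv3* then had a log2 difference of -0.39 and *Ndufb5* -0.37, with edgeR adjusted p-values of 0.0401 and 0.0410. Whether the trend comes from the libraries or from the kidneys was not tested.

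**Figure D4:**
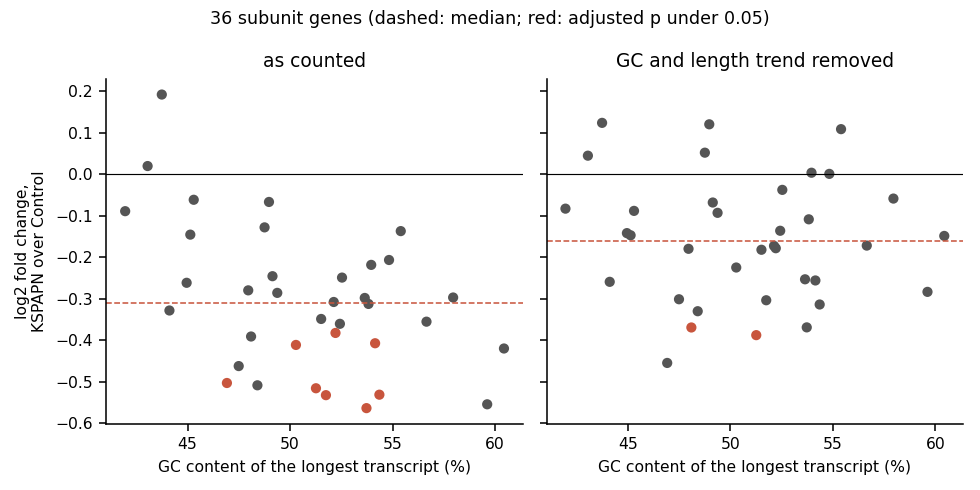
Log2 fold change of the 36 subunit genes (vertical axis) against the GC content of the longest transcript in percent (horizontal axis), as counted (left) and after the trend against GC content and length was removed from each library (right). Red marks an adjusted p under 0.05 and the dashed line the median, which moves from -0.31 to -0.16.

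**Figure D5:**
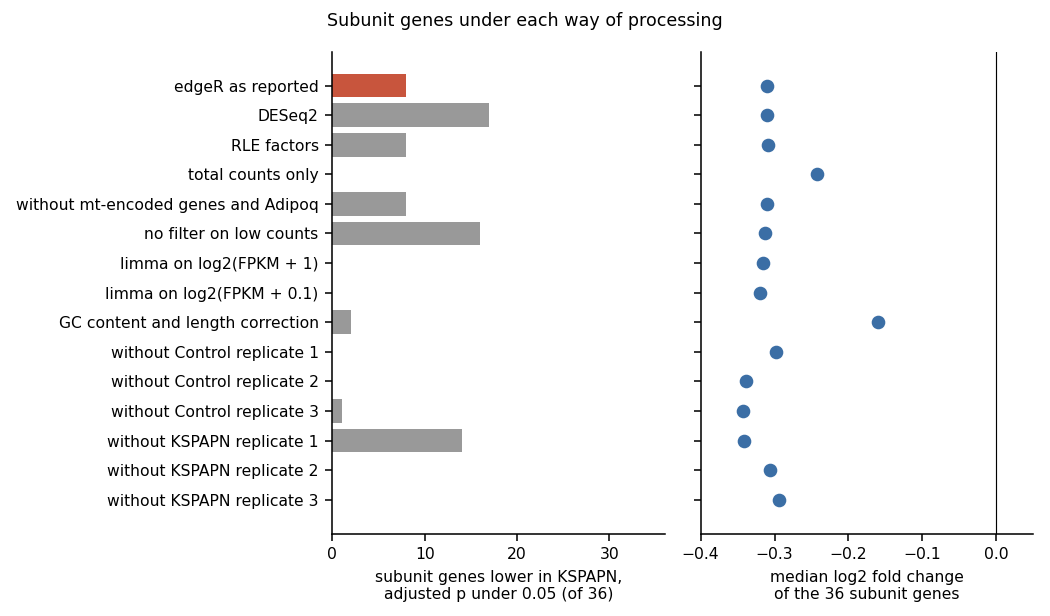
Number of the 36 subunit genes called lower in KSPAPN, with an adjusted p under 0.05 (bars, left), and their median log2 fold change (points, right) under each way of processing other than the fits with a replicate block. The count runs from 0 to 17 while the median stays between -0.34 and -0.16.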

How the data were processed

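Kidney RNA of 3 Control and 3 KSPAPN libraries was enriched with oligo(dT) beads and sequenced on a NovaSeq6000. The authors deposited raw read counts per gene, not normalized, together with FPKM that they scaled by gene length and library size. The submitters' processing notes name STAR 2.5, TopHat, DESeq2, edgeR and HTSeq 0.6.1 without their roles, and no source used here states the genome build, the annotation or the strand setting.

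Ensembl identifiers were looked up in GENCODE M21 (GRCm38) for symbol, biotype, length, GC content and position, with a match for 54495 of 54532 genes. Groups came from the sample titles, and columns marked co and tg were read as Control and KSPAPN. The quasi-likelihood test of edgeR 4.0.16 (R 4.3.3) was run on counts with TMM factors, two-sided, after its default filter (a count of 10 and a total of 15), and p-values of the 16017 genes left were adjusted by Benjamini-Hochberg. The common dispersion was 0.0225. Intervals are 95%. Levels are the deposited FPKM, and depth was 17183358 to 20871173 counts per library, without molecular identifiers. The fits were tested on simulated data.

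Alternatives were DESeq2 1.42.0, RLE factors, total counts only, factors computed without *Adipoq* and mitochondrially encoded genes, no filter, limma 3.58.1 on log2(FPKM + 1) and log2(FPKM + 0.1), a replicate block, a correction of each library's trend against GC content and length (natural splines, 5 degrees of freedom, genes with mean log2 CPM above 3), and each library left out. The members and all lists were chosen with earlier results of these data known, so counts over a list are descriptions. Named with all values are the members past an adjusted p of 0.05, the core subunits, the 3 lowest and 3 highest fold changes of the subunit genes, the highest and lowest mean FPKM, *Ndufa4*, *Ndufa4l2* and the assembly factors. Of other lists, genes past the threshold are named, and of some lists up to 3 others with the largest fold changes. Any other named gene was chosen after its values were seen. Transcripts were compared in stretches of 100 bases to find shared sequence. Promoter windows came from RefSeq (GRCm38.p6), and the NRF-1 letters were relaxed by 1 base after a first look at the windows. Among the members without a window were *Ndufa2*, *Ndufa4l2*, *Ndufaf6*, *Ndufb9* and *Ndufs1*. *Coa1* and *Choldh* were not analysed here, and 1 member and 1 gene of another list, which count in their lists, are not reported here on their own. Python 3.11.15 with pandas 2.3.3 and matplotlib 3.10.9 served for tables and figures.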

Additional observations from a re-analysis of the deposited data

How the results depend on the processing

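The counts of called genes moved with the processing, and the direction of the median did not. The number of subunit genes lower at an adjusted p under 0.05, 8 as reported, was 17 with DESeq2, 16 without a filter on low counts, 0 with total counts only, 0 with limma on log2(FPKM + 1), 0 with limma on log2(FPKM + 0.1), 2 with the correction for GC content and length and 6 when the replicate block was added to that correction, and it ran from 0 to 14 when single libraries were left out. The share of all genes called lower moved too, from 2.25% as reported to 4.65%, 3.53%, 1.22%, 0.737%, 0.681%, 1.85% and 3.08% in the same order, and to 0.206% to 3.47% without single libraries. RLE factors, and factors computed without *Adipoq* and mitochondrially encoded genes, each gave 8. The median log2 fold change of the subunit genes, -0.31, was -0.24 with total counts only and -0.29 to -0.34 when single libraries were left out. With the correction for GC content and length it was -0.16, and also -0.16 with the replicate block added. Over all genes tested the median was 0.012 as reported, 0.081 with total counts only and 0.043 with the correction for GC content and length. The assembly factors stayed at 0 called genes in all 16 alternatives. With the replicate block, 18 subunit genes were called lower and 1 mitochondrially encoded subunit, *mt-Nd6*, higher (0.46), against 4.4% and 1.4% of all genes (2.25% and 0.393% as reported). Libraries of the same number correlated at 0.054, 0.154 and 0.173 in their deviations from the group means, and each library correlated best with its own number, a hint from the data and not from the design, since the labels tie no Control pool to a KSPAPN pool. Of the genes of the naming rule 7 changed sign, each from a value not past the threshold. *Ndufs8* was 0.00055 with the correction for GC content and length and 0.00098 with the block added. With total counts only *Ndufab1* was 0.0069, *Ndufaf4* 0.058, *Ndufaf7* 0.024 and *Ndufa4l2* 0.035. *Ndufa4l2* was also 0.00072 and 0.014 with limma at pseudocounts of 1 and 0.1, 0.0035 with the replicate block, 0.28 with the correction for GC content and length and 0.31 with both. With single libraries left out, *Ndufs4* ran from -0.038 to 0.11, *Ndufa4l2* from -0.35 to 0.28, *Ndufaf2* from -0.21 to 0.041 and *Ndufaf4* from -0.12 to 0.17. Outside that rule *Ndufs5*, *Ndufb9*, *Ndufc2* and *Ndufb10* also changed sign, with highest values of 0.12, 0.11, 0.052 and 0.0043 over the alternatives. Of 432 fold changes, 1 for each of the 27 genes of the naming rule in each of 16 alternatives, 326 kept their direction and their side of the threshold, 76 lost and 9 gained an adjusted p under 0.05, and 21 changed sign. The causes were not tested. With 3 pools a group, differences of the size seen here lie close to the threshold, and no p of an exact test over 3 against 3 libraries can go below 0.1.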

Other observations

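*Ndufb1-ps*, which GENCODE M21 classes as a non-coding RNA at a bidirectional promoter and which lies outside the rule of protein-coding genes, had 33.0, 37.6 and 28.4 FPKM in the Control libraries and 23.3, 34.4 and 37.7 FPKM in the KSPAPN libraries. The groups overlapped, and its log2 fold change was -0.051. Of the processed pseudogenes of the family, *Ndufab1-ps* had 6 to 10 reads a library and *Ndufs6b* 0 to 7, and *Ndufa11b* was listed at 0 in all 6 libraries.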
